A study of Homo sapiens with 6 samples.

Results

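The microfibril gene set described here had 10 members: FBN1 and FBN2, LTBP1, LTBP2 and LTBP3, MFAP2 and MFAP5, EFEMP1 and FBLN5, and LOX. All encode parts of the elastic microfibril or proteins that bind or cross-link it, and they were chosen from measured values of the same contrast that is described below, so their differences are given as a description with no test. They stood among 28501 genes on the primary assembly with a value above 0 in at least 1 sample. RNA was sequenced from hTERT-RPE1-TOShOFD1 cells, a human retinal pigment epithelium line immortalised with telomerase (RPE1). The line was given a lentiviral Tet-On short hairpin against OFD1, a centrosome and centriolar satellite protein. The study reports that depletion of OFD1 in RPE1 cells led to primary cilia and to exit from the cell cycle. Both groups carried the hairpin: 3 control samples received no doxycycline, and 3 OFD1-depleted samples received 200 ng/mL doxycycline, all for 72 h. No sample had doxycycline without the hairpin, and none is labelled with a control hairpin. Doxycycline, loss of OFD1 and effects of the hairpin on other mRNAs therefore cannot be told apart. The labels do not say whether the samples were separate cultures, or whether the line is 1 clone, so the spread between samples may in part be technical.

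OFD1 itself (ENSG00000046651) stood at 3.34, 3.62 and 3.44 FPKM (fragments scaled by transcript length and library size) in the control samples and at 0.795, 0.763 and 1.43 FPKM in the OFD1-depleted samples. All 3 depleted samples lay under all 3 controls, with a log2 fold change of -1.75 (SE 0.255, adjusted p = 0.00085, limma). Of 13 retinal pigment epithelium markers, 4 had a mean of at least 1 FPKM (KRT8, KRT18, MITF, OTX2) and 0 were called, while RPE65, the visual cycle isomerase, did not exceed 0.209 FPKM, RLBP1, LRAT and TYR stayed near 0 and TTR was listed at 0 in every sample. BEST1 was at most 0.0475 FPKM outside depleted sample 2, where it was at 4.33 FPKM, and SERPINF1 and MERTK did not exceed 1.11 and 1.07 FPKM. The summed level of the 13 markers ranged from 263.4 to 280.3 FPKM in controls and from 304.9 to 421.2 FPKM after depletion. Most of that sum came from the keratin genes KRT8 and KRT18. Their means were 146.4 and 116.3 FPKM in controls and 177.6 and 159.3 FPKM after depletion. Of 10 mesenchymal markers 2 were called lower (THY1, CDH2) and 1 higher (COL1A1), with sums of 4336 to 4619 and 3715 to 3995 FPKM. None of 10 retinal neuron and 6 endothelial markers reached the level needed for a test, and of 5 immune markers only CD68 did, which was not called. The part of these markers in the values below was not tested.

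Fibrillin molecules assemble end to end into microfibrils outside the cell, which in elastic tissues form the scaffold on which elastin is laid down and in the eye form the zonule that holds the lens. Latent TGF-beta binding proteins (LTBPs) tether the inactive growth factor to these fibrils, microfibril-associated glycoproteins and fibulins decorate them, and lysyl oxidase joins collagen and elastin chains by covalent cross-links. FBN1 is the gene mutated in Marfan syndrome.

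FBN1 (ENSG00000166147, minus strand, GRCh38 chr15:48408313-48645721, 66 exons), the main fibrillin of adult tissue, had the widest difference of the members. It stood at 168.0, 128.1 and 169.5 FPKM in the control samples and at 26.6, 16.8 and 25.1 FPKM in the OFD1-depleted samples. The groups were far apart, the highest depleted sample lying well under the lowest control. The mean was 155 ± 23.5 FPKM in controls and 22.9 ± 5.27 FPKM after depletion (SD, n = 3 each), which is 14.7% of control and a log2 fold change of -2.78 (SE 0.186). Ordered by log2 fold change from the lowest, FBN1 was number 10 of the 12025 genes tested. Among the members it went from rank 1 by mean FPKM in controls to rank 6 after depletion, and among all tested genes from rank 378 to rank 2761. A bulk level does not separate fewer expressing cells from less RNA per cell.

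**Figure D1:**
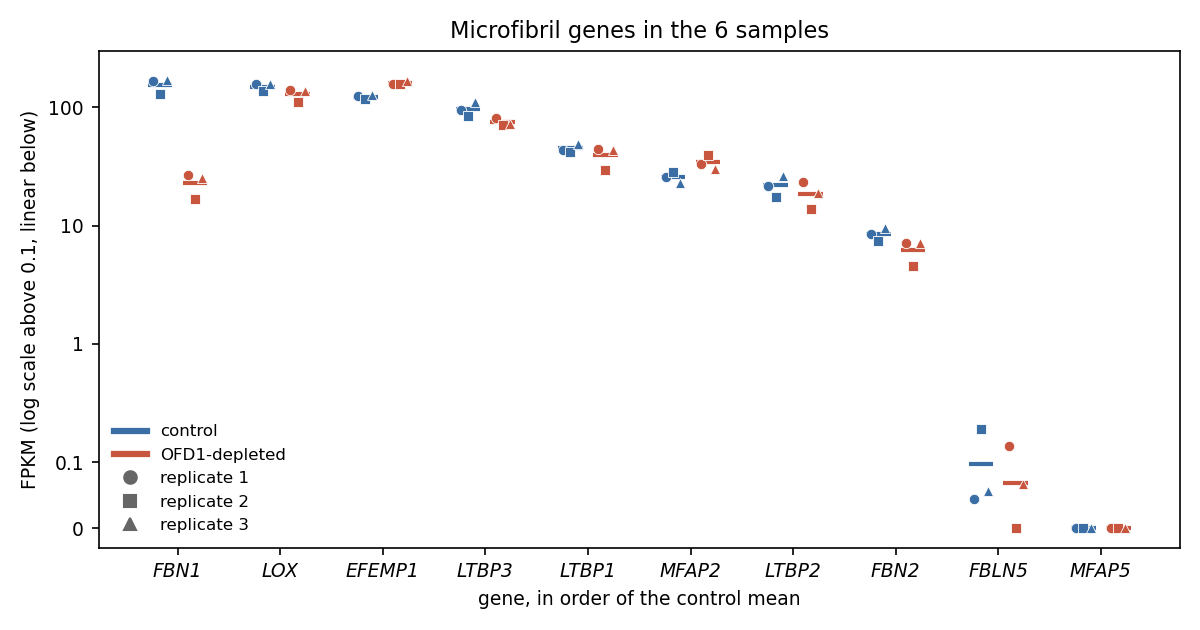
FPKM of the microfibril genes in each control and OFD1-depleted sample on an axis that is logarithmic above 0.1 FPKM and linear below, each point 1 sample and each dash a group mean. FBN1 stood at 155 FPKM in controls and 22.9 FPKM after depletion, while the other members lay closer together between groups.

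FBN2 (ENSG00000138829, chr5:128257909-128659185, 65 exons), the fibrillin known mostly from developing tissue, was far lower than FBN1 in controls. It stood at 8.57, 7.41 and 9.62 FPKM in controls and at 7.09, 4.54 and 7.11 FPKM in depleted samples. The groups did not overlap, but the gap between the nearest samples was small. The mean went from 8.53 ± 1.11 to 6.25 ± 1.48 FPKM, a log2 fold change of -0.47 (SE 0.191), or 73.2% of control. Without depleted sample 2 it was -0.25.

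The balance of the fibrillins therefore differed between the groups in every sample. The ratio of FBN1 to FBN2 was 19.6, 17.3 and 17.6 in controls and 3.76, 3.71 and 3.53 after depletion. These ratios varied less between samples of a group than the levels did, and their means, 18.2 ± 1.24 and 3.66 ± 0.118, were 4.96-fold apart. FBN1 made up 94.8% ± 0.328 of the summed fibrillin FPKM in controls and 78.5% ± 0.551 after depletion, so it remained the larger share in both. The sum of both fibrillins went from 163.7 ± 24.5 to 29.1 ± 6.73 FPKM.

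**Figure D2:**
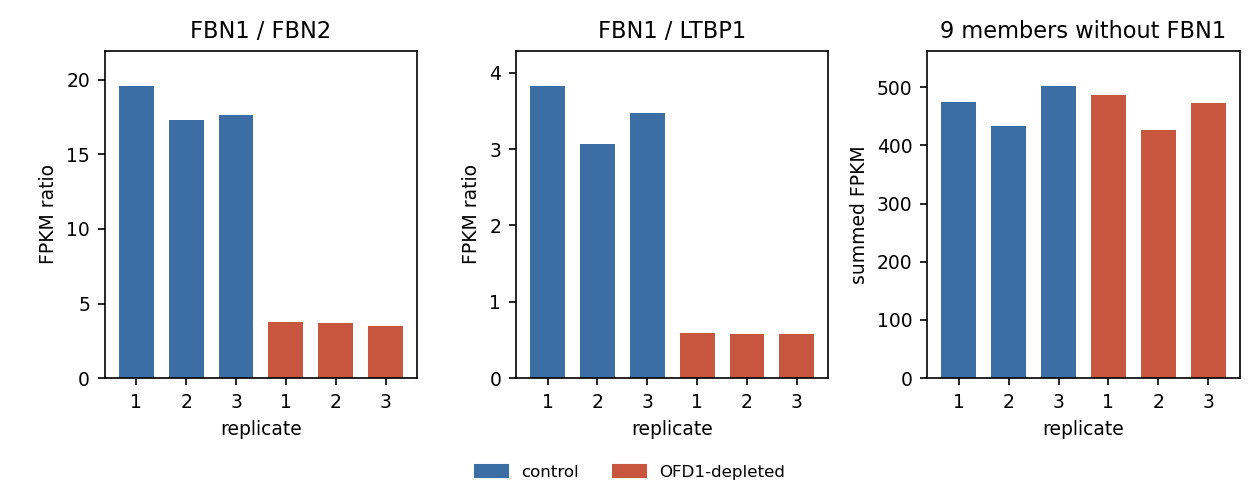
Ratio of FBN1 to FBN2 and to LTBP1, and the summed FPKM of the 9 members without FBN1, with 1 bar per sample from 0. The ratio of FBN1 to FBN2 averaged 18.2 in controls and 3.66 in OFD1-depleted samples without overlap, while the sums without FBN1, 432.4 to 502.1 FPKM in controls and 425.5 to 486.5 FPKM after depletion, overlapped.

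A word of 7 bases, ACTAGAA, singled out FBN1 among the members by its mRNA sequence. Short hairpins are cut into a guide strand, and as background such a guide can lower, besides its matched target, mRNAs that pair in their 3′ UTR with the short seed near the guide's 5′ end. Earlier results of these data had shown genes with ACTAGAA in the 3′ UTR to be lower. Of 16378 such words, each in 20 or more 3′ UTRs, ACTAGAA ranked lowest, also with the members left out. The score was the mean log2 fold change, adjusted for length and A+T content, scaled by the square root of the number of genes. It thus gives more weight to words held by many genes. That ranking used the contrast itself, so it is a description. The study lists a hairpin sequence, which was not used here because its letters were held only as text read from page images, so whether the word belongs to the hairpin's guide was not tested. The windows below, with the word in capitals, show its copies in FBN1 beside the copy in OFD1 (GENCODE v44 canonical transcripts, GRCh38, written 5′ to 3′ along the mRNA).
OFD1 coding sequence: gaacgaagagaACTAGAAaaactgtatcag
FBN1 coding sequence: gaacttaaccaACTAGAAgacaaatatgac
FBN1 3′ UTR, first copy: aacatttataaACTAGAAtaataatgccct
FBN1 3′ UTR, second copy: aatgtataaccACTAGAAgaaaatttaaca
The OFD1 window lies in exon 20 of 23 at chrX:13767249-13767278, plus strand. The FBN1 windows all lie in the last exon, number 66, on the minus strand, at chr15:48411056-48411085, chr15:48410338-48410367 and chr15:48409924-48409953. Around the word, the longest run of bases shared with the OFD1 window was 8 bases for the FBN1 coding copy and 8 and 7 bases for the 3′ UTR copies.

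FBN1 thus held 2 copies in a 3′ UTR of 2677 bases and 1 in its coding sequence of 8616 bases. None of the other 9 members had the word in either part of its mRNA, although LOX, with 3548 bases, and LTBP2, with 2701 bases, have longer 3′ UTRs. The shorter word CTAGAA was in the 3′ UTRs of FBN1 and LOX with 2 copies each, and of LTBP3, MFAP5 and EFEMP1 with 1 copy each. In OFD1 the word was in the coding sequence and not in the 3′ UTR of 249 bases.

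Of 10629 tested genes whose 3′ UTR had 30 bases or more, 1249 (11.8%) held at least 1 copy there and 179 (1.68%) held 2 or more. The median log2 fold change was -0.02 for the 9380 genes with no copy, -0.27 for the 1070 genes with 1 copy and -0.40 for the 179 genes with at least 2. Unlike the ranking of words, these values were not adjusted for 3′ UTR length or A+T content. Called lower were 10.7%, 27.8% and 39.7% of these genes, and called higher 4.91%, 1.78% and 2.79%. FBN1 had the lowest log2 fold change of the 179, followed by LRRC58 at -2.68, a gene named here after its values were seen. With no copy of the word, 4 genes lay below FBN1. Among 2042 tested genes with a 3′ UTR of similar length, from 2000 to under 3500 bases, 15.7% held the word and 35 (1.71%) held at least 2 copies. The part of these copies in the difference of FBN1 was not tested.

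**Figure D3:**
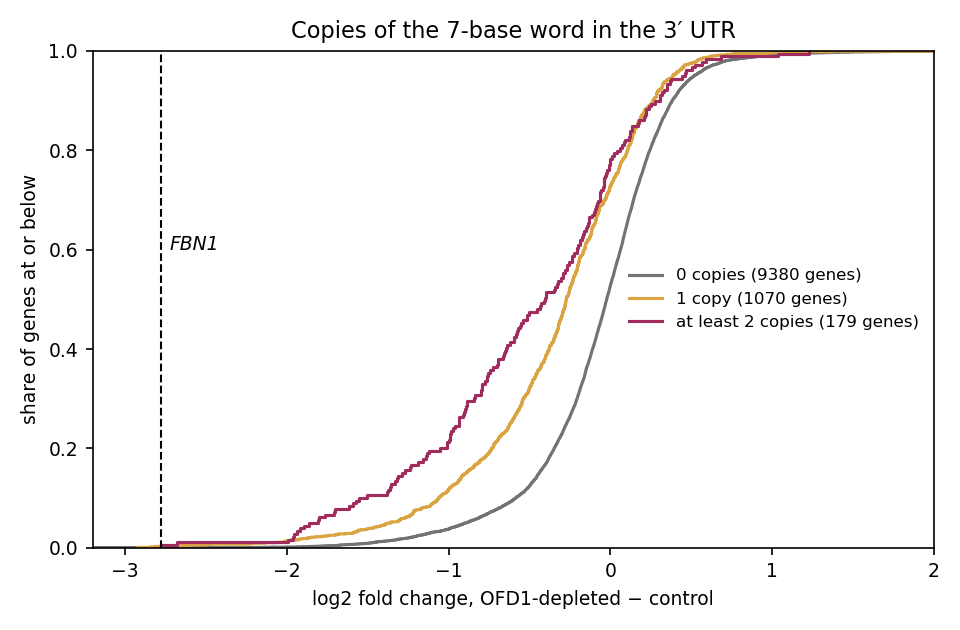
Cumulative share of tested genes by log2 fold change, split by copies of ACTAGAA in the 3′ UTR, with FBN1 as a dashed line and a few genes beyond the axis not drawn. The values were not adjusted for 3′ UTR length or A+T content. The curve of the 179 genes with at least 2 copies lies to the left of the curve of the 9380 genes with none over most of the axis, with medians of -0.40 and -0.02, and FBN1 is at the far left.

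The LTBPs showed small differences. LTBP1 (ENSG00000049323, chr2:32946953-33399509), which binds the TGF-beta propeptide, stood at 43.9, 41.9 and 48.9 FPKM in controls and 44.7, 29.3 and 43.5 FPKM after depletion. The groups overlapped, and depleted sample 2 was the lowest (log2 fold change -0.22, SE 0.169). LTBP2 (ENSG00000119681, chr14:74498183-74612378), which binds fibrillin but not latent TGF-beta and matters for the ciliary zonule, stood at 21.7, 17.4 and 26.5 FPKM and 23.1, 13.9 and 18.8 FPKM. Here too the groups overlapped (log2 fold change -0.24, SE 0.202). Without depleted sample 2, LTBP1 was at -0.02 and LTBP2 at -0.05, and LTBP2 was at -0.09 without control 3, -0.39 without control 2 and -0.41 without depleted 1.

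LTBP3 (ENSG00000168056, chr11:65538559-65558930), another carrier of latent TGF-beta, was the most abundant LTBP. It stood at 94.1, 84.6 and 111 FPKM in controls and 81.1, 70.5 and 71.6 FPKM after depletion. The depleted samples lay under the controls without overlap, by a narrow gap (log2 fold change -0.37, SE 0.138, 77.1% of control). With LTBP4, which is no member, the 4 LTBPs summed to 196.6 ± 25.2 FPKM in controls and 159.0 ± 20.3 FPKM after depletion. Their shares of that sum moved little: LTBP3 held 49.1% and 47.0%, LTBP1 22.9% and 24.5%, LTBP4 17.0% and 16.9%, and LTBP2 11.1% and 11.6%. The ratio of FBN1 to LTBP1 was 3.83, 3.06 and 3.47 in controls and 0.595, 0.575 and 0.577 after depletion, without overlap.

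MFAP2 (ENSG00000117122, chr1:16974502-16980632), a small glycoprotein of the microfibril also called MAGP1, went the other way. It stood at 25.7, 28.1 and 23.1 FPKM in controls and 33.0, 39.6 and 30.1 FPKM in depleted samples. Every depleted sample lay above every control, and the mean of 34.2 ± 4.87 FPKM was 133.5% of the control mean of 25.6 ± 2.51 FPKM (log2 fold change 0.41, SE 0.143). MFAP5 (ENSG00000197614, chr12:8637346-8662888), its relative MAGP2, was listed at 0 in all 6 samples.

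EFEMP1 (ENSG00000115380, chr2:55865967-55924139), the gene of fibulin-3 and mutated in a macular dystrophy, was also higher after depletion. It stood at 123.3, 116.6 and 127.2 FPKM in controls and 158.5, 157.1 and 165.1 FPKM in depleted samples. The groups did not overlap, and the spread within each was narrow, at 122.4 ± 5.38 and 160.2 ± 4.28 FPKM (log2 fold change 0.39, SE 0.119). FBLN5 (ENSG00000140092, chr14:91869411-91947987), which helps elastin assemble on the microfibril, was near 0, at 0.045, 0.192 and 0.0565 FPKM in controls and 0.138, 0 and 0.0672 FPKM after depletion. EFEMP1, behind FBN1 and LOX by mean level in controls, was the most abundant member after depletion, and its ratio to FBN1 was 0.798 ± 0.0972 in controls and 7.29 ± 1.80 after depletion.

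LOX (ENSG00000113083, chr5:122063195-122078413), the lysyl oxidase, stood at 156.7, 136.2 and 155.9 FPKM in controls and 138.9, 110.6 and 137.0 FPKM in depleted samples. The groups overlapped, since depleted samples 1 and 3 lay above control sample 2 (log2 fold change -0.22, SE 0.138), and without depleted sample 2 the log2 fold change was -0.11. FBN1 and LOX had similar levels in controls, with ratios of 1.07, 0.941 and 1.09, and very different ones after depletion, with ratios of 0.192, 0.152 and 0.183.

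By mean FPKM the order of the members in controls was FBN1, LOX, EFEMP1, LTBP3, LTBP1, MFAP2, LTBP2, FBN2, FBLN5 and MFAP5. Among neighbours in that order the samples of FBN1 and LOX overlapped, as did those of MFAP2 and LTBP2. After depletion the order was EFEMP1, LOX, LTBP3, LTBP1, MFAP2, FBN1, LTBP2, FBN2, FBLN5 and MFAP5, with overlap between LTBP1 and MFAP2, FBN1 and LTBP2, and FBLN5 and MFAP5. FBN1 was 24.8% ± 1.71 of the summed FPKM of the 10 members in controls and 4.68% ± 0.759 after depletion. Without FBN1 the members summed to 474.0, 432.4 and 502.1 FPKM in controls and 486.5, 425.5 and 473.3 FPKM after depletion, with overlapping groups.

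Read across the whole table, limma called 1429 of 12025 genes lower (11.9%) and 610 higher (5.07%) at an adjusted p under 0.05. With TPM scaling the split was 1990 lower and 272 higher, and with quantile normalization 1311 lower and 1093 higher. Of the 8 members with a mean of at least 1 FPKM, all of which were above that level in every sample, 1 was called lower (FBN1) and 1 higher (EFEMP1). The EFEMP1 call was lost without control 1, control 2, control 3, depleted 1 or depleted 3. It was also lost with TPM scaling, quantile normalization, no variance trend or no filter on low values. With TPM scaling 2 members were called lower and 0 higher. Of all tested genes, 22.3% had every depleted sample under every control, as FBN1, FBN2 and LTBP3 did, and 13.8% had the opposite, as MFAP2 and EFEMP1 did. The median log2 fold change of the 8 was -0.23, beside -0.03 over all genes tested. Since the rule used this contrast, nothing is read from these counts.

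Other genes in the table followed FBN1 across the 6 samples far more closely than the members did. The highest Pearson correlations on the log2 scale were those of ZBED4 (r = 0.9995), CHRDL1 (r = 0.9987), an inhibitor of bone morphogenetic proteins, SAMD8 (r = 0.9986), SLC35A5 (r = 0.9983) and SCD (r = 0.9981), a fatty acid desaturase. These 6 points share 2 groups and their libraries, and 79 of 12024 genes reached r of 0.99. Among the members LTBP3 was nearest (r = 0.8718), followed by FBN2 (r = 0.8101) and LOX (r = 0.7808), with MFAP2 (r = -0.8973) and EFEMP1 (r = -0.9363) opposite. On the related gene lists PMEPA1 (r = 0.9845), ITGB5 (r = 0.9829) and SDC4 (r = 0.9827) were the nearest. Each of the 5 nearest genes held ACTAGAA in its 3′ UTR, ZBED4 with 3 copies and the others with 1, whereas 11.8% of genes with a 3′ UTR did so. The 3′ UTRs of these 5 had 2375 to 5431 bases. Among genes with 2000 to under 3500 bases, 15.7% held the word. SAMD8, with 5431 bases, and SCD, with 3893, lie above that range, where the share was not counted. This is a description of genes picked by the same contrast.

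Beyond the members, 39 other genes of the elastic fibre were listed, of which 23 were tested. FBLN7 and HSPG2 were called lower and DCN higher, or 8.70% and 4.35% of those tested, beside 11.9% and 5.07% of all genes. With TPM scaling 5 were lower and 1 higher, and with median-of-ratios scaling 1 and 2. The list had a median log2 fold change of -0.17. FBLN7, a fibulin, was at 4.92 ± 0.320 FPKM in controls and 2.96 ± 0.136 FPKM after depletion (log2 fold change -0.71, SE 0.154, adjusted p = 0.00882, limma). HSPG2, the basement membrane proteoglycan perlecan, which binds fibrillin-1, was at 26.5 ± 7.14 and 15.6 ± 3.53 FPKM (log2 fold change -0.75, SE 0.218, adjusted p = 0.0374, limma), with overlapping groups. DCN, the small proteoglycan decorin, was at 0.869 ± 0.0997 and 1.88 ± 0.128 FPKM (log2 fold change 1.03, SE 0.245, adjusted p = 0.015, limma), close to the limit of 1 FPKM. FBLN7 lost its call without control 1 or control 3, DCN without depleted 1, and HSPG2 without control 1, control 3, depleted 2 or depleted 3, and also with median-of-ratios scaling, quantile normalization, no variance trend or no filter on low values. The count of 3 calls became 1 without control 1 or control 3, 6 without control 2 and 5 without depleted 2.

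LTBP4, which binds elastin's assembly partners, was at 33.3 ± 4.10 FPKM in controls and 26.8 ± 3.32 FPKM after depletion, and was not called (log2 fold change -0.31, SE 0.142, adjusted p = 0.163, limma). ELN, the gene of elastin itself, was at 0.111 ± 0.052 and 0.112 ± 0.0149 FPKM, so the core protein of the elastic fibre was near 0 in both groups and was not tested. None of the called genes of this list held ACTAGAA in its 3′ UTR, where 2 of the 23 tested did (GGCX and THSD4, named after their values were seen).

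**Figure D4:**
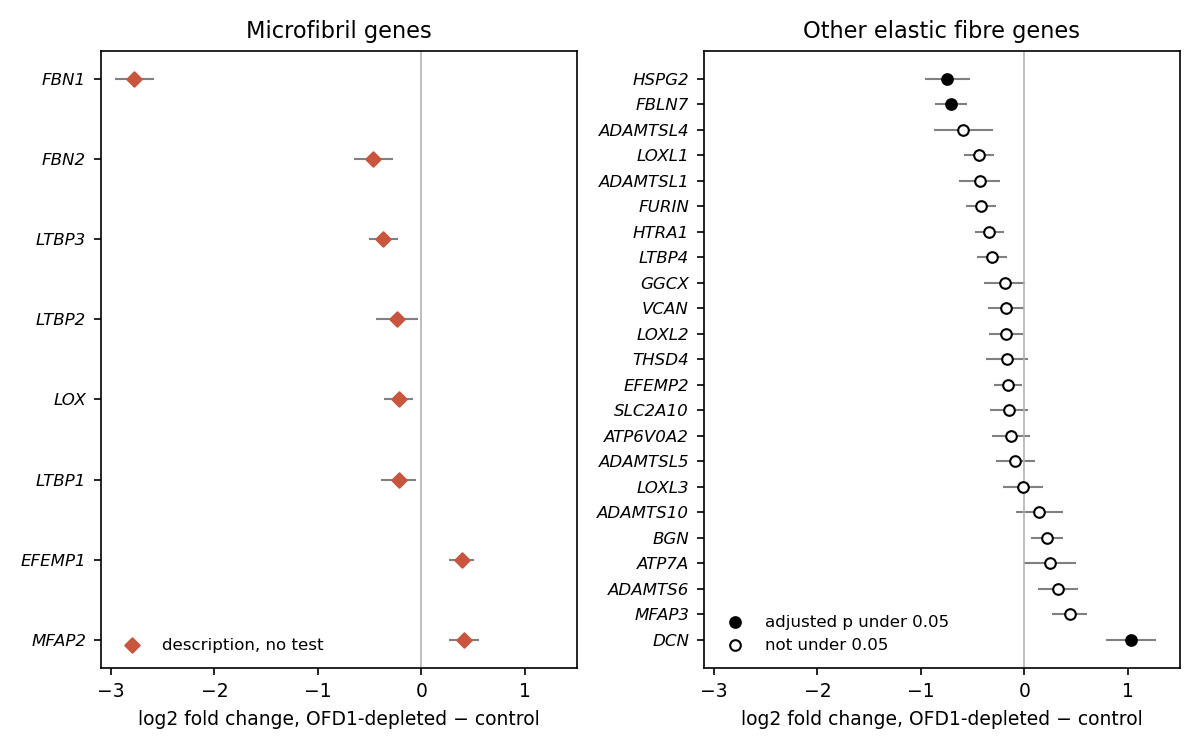
Log2 fold changes of the 8 microfibril members with a mean of at least 1 FPKM (left, drawn as a description) and of the 23 other elastic fibre genes tested (right), with bars of 1 SE. FBN1 at -2.78 stands apart from the others, which lie between -0.75 for HSPG2 and 1.03 for DCN.

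Genes that store, release or receive TGF-beta changed in both directions. Of 31 listed, 21 were tested, with a median log2 fold change of -0.07. Called lower were 4 (19.0%) and called higher 5 (23.8%), beside 11.9% and 5.07% of all genes tested. With TPM scaling 5 were lower and 4 higher. SDC4, a cell surface heparan sulfate proteoglycan, was at 89.2 ± 4.73 FPKM in controls and 25.9 ± 1.73 FPKM after depletion (log2 fold change -1.78, SE 0.121, adjusted p = 1.1e-05, limma). ITGB5, an integrin subunit that can bind latent TGF-beta, was at 120.2 ± 15.7 and 63.6 ± 6.12 FPKM (log2 fold change -0.91, SE 0.14, adjusted p = 0.00121, limma). TGM2 and ITGA5 were the other lower calls, with log2 fold changes of -0.49 and -0.52. The TGM2 call was lost without any 1 sample other than depleted 2, and the ITGA5 call without any 1 sample other than control 2. With no filter on low values both were lost, as were the calls of THBS1, ITGB8 and BMP2 below, and ITGA5 also with median-of-ratios scaling or no variance trend.

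Among the higher calls ITGB3, another integrin subunit, was at 1.29 ± 0.256 and 3.56 ± 0.487 FPKM (log2 fold change 1.40, SE 0.217, adjusted p = 0.00125, limma). THBS1, a secreted activator of latent TGF-beta, was at 227.4 ± 29.3 and 471.5 ± 101 FPKM (log2 fold change 1.03, SE 0.18, adjusted p = 0.00251, limma). ITGB8 and BMP2 rose by log2 fold changes of 0.97 and 0.98. The ligand TGFB2 was at 38.6 ± 2.0 and 59.9 ± 9.84 FPKM (log2 fold change 0.62, SE 0.145, adjusted p = 0.0136, limma), a call lost without control 2, control 3 or depleted 1, with TPM scaling and with no filter. TGFB1 was at 126.3 ± 14.1 and 131.9 ± 13.9 FPKM (adjusted p = 0.801, limma), and FN1, the fibronectin on which fibrillin assembles, at 1765 ± 383 and 1656 ± 397 FPKM (adjusted p = 0.807, limma). Neither was called. ACTAGAA was in the 3′ UTR of 6 of the 21 tested genes, among them the lower calls SDC4 and ITGA5 and the higher call THBS1.

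Of 26 genes listed as responding to TGF-beta, 21 were tested, 4 were called lower and 4 higher, or 19.0% in each direction, beside 11.9% and 5.07% of all genes tested. The split was 6 lower and 3 higher with TPM scaling, 3 and 6 with median-of-ratios scaling, and 7 and 6 with quantile normalization. PMEPA1, a target that dampens the pathway, was at 7.32 ± 0.520 FPKM in controls and 3.26 ± 0.236 FPKM after depletion (log2 fold change -1.14, SE 0.147, adjusted p = 0.000367, limma), and it held ACTAGAA in its 3′ UTR, the 1 gene of the list tested that did. SMAD6, SKI and CCN1 were also lower, with log2 fold changes of -0.95, -0.49 and -0.44. POSTN, the matrix protein periostin, was higher, at 78.7 ± 3.38 and 214.8 ± 35.3 FPKM (log2 fold change 1.43, SE 0.146, adjusted p = 9.04e-05, limma). COL1A1, a fibrillar collagen chain, was at 8.68 ± 1.17 and 24.4 ± 3.51 FPKM (log2 fold change 1.48, SE 0.152, adjusted p = 9.37e-05, limma). ACTA2, smooth muscle actin, was at 238.1 ± 21.6 and 631.7 ± 85.7 FPKM (log2 fold change 1.40, SE 0.147, adjusted p = 0.000104, limma), and TAGLN was the remaining higher call at 0.55. SMAD6 lost its call without control 3, SKI without any 1 control or depleted 3, CCN1 without any 1 control, depleted 1 or depleted 3, and TAGLN without any 1 control or depleted 1. All 4 were also lost with no filter, SKI, CCN1 and TAGLN with no variance trend, CCN1 with median-of-ratios scaling and TAGLN with TPM scaling. The count of 8 calls became 5 without control 1 and 4 without control 3.

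The samples numbered 2 in both groups stood apart by transcript length, which bears on the members because fibrillin and LTBP mRNAs are long. Among 921 tested genes with a transcript of at least 8000 bases, the median deviation from the group mean was -0.04 (log2) in control 2 and -0.32 in depleted 2, against 0.21 and 0.11 in depleted 1 and 3. Among 1357 genes under 1000 bases it was 0.10 in control 2 and 0.26 in depleted 2. FBN1, FBN2, LTBP1, LTBP2, LTBP3, LOX and EFEMP1, the last with an mRNA of 2708 bases, all had their lowest value of each group in these samples, and MFAP2, of 1045 bases, its highest. The median log2 fold change of the genes also went with length, from 0.13 under 1000 bases to -0.18 at 8000 bases or more. FBN1, of 11609 bases, had the second lowest log2 fold change of the 921 long genes, that is rank 2. Without both samples numbered 2, an alternative added after seeing the data, the log2 fold change was -2.70 for FBN1 (SE 0.087), -0.35 for FBN2, -0.07 for LTBP1, -0.20 for LTBP2, -0.42 for LTBP3, -0.18 for LOX, 0.37 for MFAP2 and 0.37 for EFEMP1. The difference of FBN1 was thus about as large without them, and that of LTBP1 was closer to 0. The part of the length trend in the members' values was not tested.

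**Figure D5:**
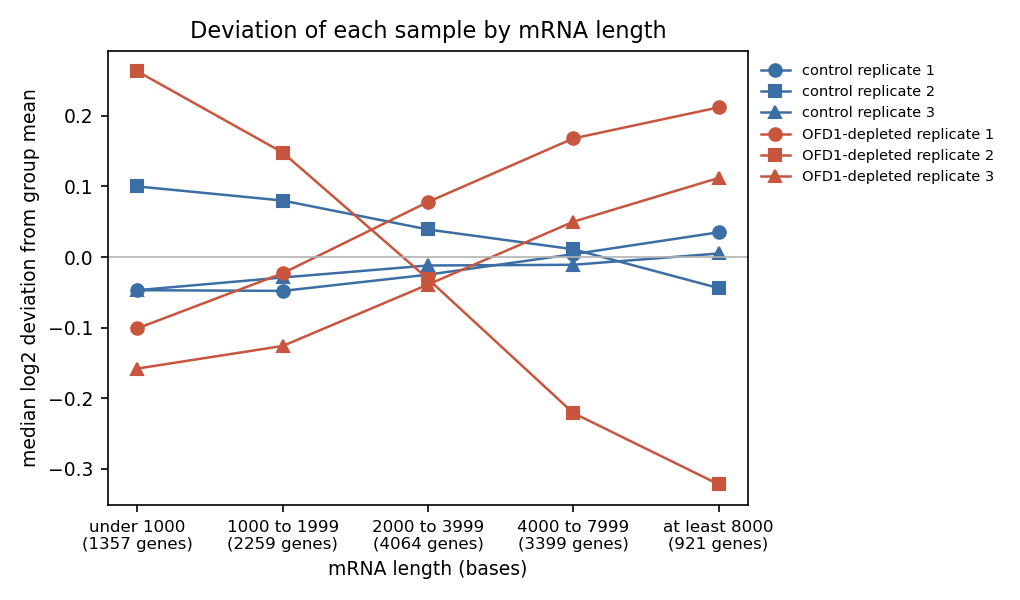
Median log2 deviation from the group mean by transcript length class in each sample, with 1 line per sample. Depleted sample 2 goes from 0.26 in the shortest class to -0.32 in the longest, and the other depleted samples go the opposite way.

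Some members share their locus with another gene, and the strand setting of the counting is not given in the sources used here. FBN1 overlaps the long noncoding RNA AC022467.1 on the same strand, which was at 1.62 ± 0.198 FPKM in controls and 1.54 ± 0.561 FPKM after depletion. LOX overlaps SRFBP1 on the opposite strand, at means of 2.60 FPKM in controls and 2.54 FPKM after depletion. The part of overlapping reads in the members' values was not tested.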

How the data were processed

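RNA of 6 samples was sequenced. The study's methods name a directional library kit, and the labels name that kit but also a second kit and frozen retinas, although they describe the samples as a cell line, so the library type is not certain. Per the study's methods the authors aligned reads to GRCh38 with HISAT2 (version 2.0.5 in the submitters' processing notes) and estimated expression with StringTie, and the deposited values are FPKM per gene, with no read counts, so the depth of each sample is unknown and no counting interval is given. The deposited table held 67130 rows, of which 6464 on alternative contigs were at 0 and were left out, and the FPKM summed to 408302.3 to 414546.7 in controls and 433262 to 493509.6 after depletion. Columns were assigned to samples by name.

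Values were taken as log2(FPKM + 0.1), so that fold changes of low genes are understated, 12025 genes whose mean reached 1 FPKM were kept, and groups were compared with limma 3.58.1 (R 4.3.3), with a variance trend and Benjamini-Hochberg adjustment over all genes tested. A gene was called at an adjusted p under 0.05. FPKM corrects for length, so levels may be compared between genes on that scale. The fit was tested on simulated data with 200 changed genes. It called 67 of 100 genes given a log2 fold change of 1 in size and 95 of 100 given a larger one. Of 164 genes called, 162 were changed, and 0 were called when none was changed. Smaller changes were not simulated. The simulated noise was independent between genes, so it did not hold the trend with transcript length. The main fit did not pair samples by replicate number, and whether same-numbered samples shared a batch is not known.

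The members and the gene lists were chosen with earlier results of these data known. Genes named beyond the 10 members were OFD1, every called elastic fibre gene with ELN and LTBP4, up to 4 called genes with the smallest adjusted p of each other list with TGFB1, TGFB2 and FN1, the 5 genes most correlated with FBN1, and the 3 most correlated on the lists. Outside that rule, and after their values were seen, TGM2, ITGA5, ITGB8, BMP2, SMAD6, SKI, CCN1, TAGLN, LRRC58, GGCX, THSD4, marker genes and overlapping genes were named where a count or a list was described. Words were counted on 1 strand of GENCODE v44 canonical transcripts, and all 10 members have the same start and end there as in the table. Alternatives were other pseudocounts, filters, scalings, variance models, a replicate block and leaving out samples.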

Additional observations from a re-analysis of the deposited data

How the results depend on the processing

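The members were chosen on this contrast, so their values over the alternatives are a description and no sign of stability. The log2 fold change of FBN1 ranged from -2.92 to -2.57 over 18 alternatives. TPM scaling shifted the median log2 fold change of all genes by -0.145, the other scalings by 0.077 or less. Genes called, 2039 in all, were 1083 with no filter on low values, 3956 with array weights, 3290 without both samples numbered 2 and 1111 to 2818 when leaving out each sample. Members called, 2 in all, were 1 with no filter or with no variance trend, 4 with array weights or without both samples numbered 2, and 1 to 2 when leaving out each sample. The 3 calls of other elastic fibre genes became 1 at a mean of at least 5 FPKM, 6 with TPM scaling, 11 with array weights or without both samples numbered 2, and 1 to 6 when leaving out each sample. The 9 calls on the latent TGF-beta list became 4 with no filter and 6 to 8 when leaving out each sample. The 8 calls of TGF-beta response genes became 4 with no filter, 13 with quantile normalization, 5 with no variance trend, 15 with array weights, 14 without both samples numbered 2 and 4 to 12 when leaving out each sample. TGFB1, at 0.063, was at -0.084 with TPM scaling, -0.023 with array weights, -0.097 without both samples numbered 2 and between -0.018 (without depleted 2) and 0.144 when leaving out each sample, with -0.016 without control 2. FN1, at -0.099, was between -0.282 and 0.119 (without depleted 2) when leaving out each sample, with 0.038 without control 3. The cause of these changes was not tested.

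Same-numbered samples deviated together with correlations of 0.0579, 0.0481 and 0.011, and not every sample correlated best with its own number, so the numbers were not taken as pairs. With a replicate block 2296 genes were called, and FBN1 was at -2.78 (SE 0.138). The unknown read depth limits what can be said of MFAP5, FBLN5 and ELN.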
